A study of Mus musculus with 25 samples.

Results

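Gonadal white adipose tissue of mice fed a low-fat diet (LFD) for 8 weeks was set against the same tissue after 4 weeks of LFD. The comparison took the 8 arrays whose titles carry the 8-week LFD mark (4) or the 4-week LFD mark (4), of 25 arrays in the series. All animals of the series were male mice heterozygous for apoE3L.CETP, that is, carrying the human APOE*3-Leiden and human CETP transgenes, and the controls carried them too. APOE*3-Leiden slows the clearance of lipoprotein remnants, and CETP, which wild-type mice lack, exchanges cholesteryl esters between lipoproteins. LFD, with 70% carbohydrate, 10% fat and 20% protein, started at 12 weeks of age, so the labelled ages were 20 weeks in the 8-week group and 16 weeks in the 4-week group. Time on diet and age therefore cannot be told apart. The 12-week diet groups are labelled 34 weeks old, which is older than 12 weeks of diet from that start would give, and the labels do not settle which holds. The other arrays came from LFD at 12 weeks (4), from a high-fat diet (HFD, with 60% fat, 20% carbohydrate, 20% protein and added cholesterol), with 3 arrays at 4 weeks and 4 each at 8 and 12 weeks, and from mice on chow at 12 weeks of age (2). They entered the fit as further groups.

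Gonadal fat of male mice is a visceral depot that lies beside the epididymis. On a diet rich in carbohydrate, adipocytes make fatty acids from glucose: citrate leaves the mitochondria and is cut to acetyl-CoA, which feeds fatty acid synthesis and, through mevalonate, the synthesis of sterols. The transcription factors SREBP-1c, SREBP-2 and ChREBP, which works with the partner Mlx, are known regulators of these pathways. Mitochondria of adipocytes supply the citrate and carry their own ribosomes, which translate the few respiratory chain subunits encoded by mitochondrial DNA.

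RNA was read on Affymetrix Mouse Gene 2.0 ST arrays, 1 array per sample, as log2 values, in which a difference of 1 is a doubling. Array medians ran from 5.04 to 5.36 over the 25 arrays, and the number of arrays limits the precision. The tissue label was checked against 18 measured genes of mature adipocytes: their mean log2 value was 11.95, 12.01, 12.09 and 11.81 in the LFD 8-week arrays 1 to 4, against 11.53, 11.96, 11.94 and 11.95 in the LFD 4-week arrays 1 to 4. The adipokine gene Adipoq had 11.55, 11.67, 11.78 and 11.39 at 8 weeks, against 11.57, 11.69, 11.65 and 11.58 at 4 weeks, and these ranges overlap.

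Transcripts of the liver stood out in 2 of the 8-week arrays. Alb, the gene of serum albumin, had log2 values of 13.38 and 13.32 in LFD 8-week arrays 1 and 2 and of 8.41 and 9.06 in arrays 3 and 4, against 11.64, 9.65, 7.07 and 10.10 in the LFD 4-week arrays. The mean over 29 measured hepatocyte genes was 10.08, 9.64, 5.16 and 5.34 in the 8-week arrays, against 6.95, 5.76, 5.09 and 5.61 in the 4-week arrays. Arrays 1 and 2 of the 8-week group were higher than each of the other 6 arrays for 28 of the 29 genes. The same 2 arrays were high for Xist, the RNA of X inactivation, a marker of female cells: 5.31 and 5.57, against 3.74 and 3.64 in the other 8-week arrays and 3.79, 3.55, 3.92 and 3.63 at 4 weeks, although all animals are labelled male. The Y-linked genes Kdm5d, Eif2s3y and Uty had 7.07 and 7.02, 8.93 and 8.90, and 7.85 and 7.98 in these 2 arrays. The other 6 arrays had 6.50 to 7.21, 8.74 to 9.31 and 7.88 to 8.53 in the same order. The source of the Xist signal was not tested. Over the whole series, 11 of 25 arrays had a hepatocyte mean above 8, the lowest of them at 8.89 and the highest below it at 7.12. With all 8 arrays the hepatocyte genes had a median difference of 1.82 (8 minus 4 weeks) and 0 of them were called. Without arrays 1 and 2 of the 8-week group that median was -0.52, and Alb differed by -0.88 in place of 1.43. These 2 arrays are called the liver arrays here, and the values without them are given for the main gene lists and for many of the called genes described.

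One 4-week array stood apart in another way. The mean over 13 measured genes of the epididymis was 3.97, 4.04, 3.89 and 3.97 in the 8-week arrays, against 5.83, 4.25, 3.99 and 3.99 in the 4-week arrays, so that 4-week array 1 was above the other 7. The hepatocyte mean of 4-week array 1, 6.95, was the highest of the 8 arrays after the 2 liver arrays. Without this array and the liver arrays Alb differed by -0.205, against -0.88 without the liver arrays alone. Array 1 also had the lowest mean of the adipocyte genes among the 8 arrays and the highest array median of the series. Its mean correlation with all other arrays of the series was 0.9368, against 0.9713 to 0.9761 for the other 7 arrays. Whether signal quality, tissue content or both set this array apart was not tested. In this bulk tissue, fewer cells of a type and less RNA per cell cannot be told apart.

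**Figure D1:**
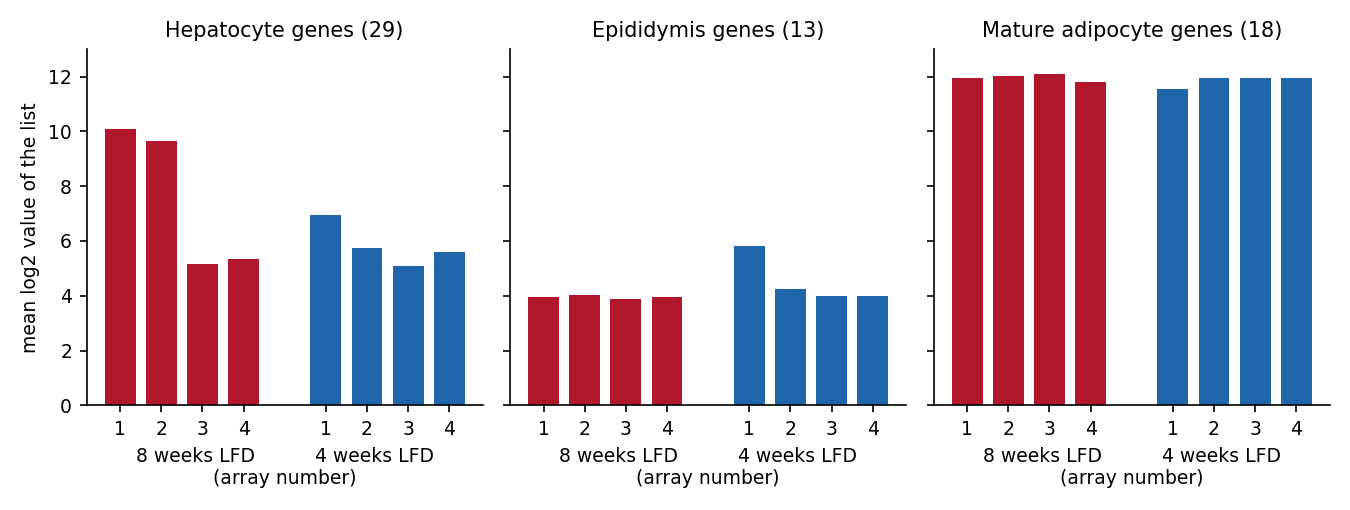
Mean log2 value of 3 marker lists (y axis, from 0) in each LFD array (x axis, array number), with 8 weeks in red on the left of each panel and 4 weeks in blue on the right. The hepatocyte panel shows 8-week arrays 1 and 2 at 10.08 and 9.64, above the others, and the epididymis panel shows 4-week array 1 at 5.83, above the others, while the adipocyte means lie between 11.53 and 12.09.

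In the comparison of LFD at 8 weeks with LFD at 4 weeks, 141 of 22180 genes (0.636%) passed a Benjamini-Hochberg adjusted p of 0.05 in limma, which is the threshold for a called gene throughout. Of them 104 rose (0.469% of all genes) and 37 fell (0.167%). The differences were modest in size, with a median of 0.64 on the log2 scale and a range of 0.32 to 1.40, and 89 exceeded 1.5-fold. The values of 137 called genes did not overlap between the 4 and 4 arrays, against 8.81% of all genes. The calls come from these same values, so this adds no separate support. The risen genes included 11 of 71 genes of mitochondrial ribosomal proteins and 2 of 19 genes of cholesterol synthesis, and the fallen genes included Col6a5, Grem1 and Slc6a4. Most risen genes (94 of 104) had a mean log2 value above the median of all gene values, 5.76, against 16 of the 37 fallen genes.

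The calls rested on few arrays. Without the 2 liver arrays, which leaves 2 arrays against 4, limma called 0 genes, 2111 genes (9.52%) had an unadjusted p under 0.05, and a fit with array weights called 7. All 141 genes kept their sign there and had an unadjusted p under 0.05, with a median difference of 0.61 in the called direction. The 141 were chosen with these same arrays, and for the 137 without overlap, leaving out arrays cannot turn the sign. The kept signs are therefore no separate support. With the hepatocyte mean as a covariate over all arrays, 165 genes were called (0.744%), 102 of them shared with the 141. Without 4-week array 1, 52 genes were called, 37 of them shared, and all 141 kept their sign with a median of 0.58. That array had the lowest of the 4-week values for 84 of the 104 risen genes and the highest for 22 of the 37 fallen genes. Leaving out one 8-week array gave 24, 22, 84 and 34 calls for arrays 1 to 4, and leaving out 4-week array 2, 3 or 4 gave 133, 50 and 224. In the 8 fits that each left out 1 LFD array, 13 genes were called every time. Among them were Mrpl57, Mrpl58, Mlx, Scarna2 and Mir301b. Genes called in only 1 of these fits included Col6a5, Mvd, Igfals, Slc6a4, Jund, Rab32, Mmab, Spring1, Lrpap1, Atp5o and Fam205a2. A fit of the 8 arrays alone called 0 genes, with 2918 at an unadjusted p under 0.05.

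The risen gene with the smallest p was Mrpl57, which encodes a protein of the mitochondrial ribosome. Its log2 values were 7.02, 7.02, 6.98 and 6.95 at 8 weeks, against 6.05, 6.17, 6.08 and 6.36 at 4 weeks. The 2 groups were wide apart and did not overlap, and the liver arrays did not differ from the other 8-week arrays. The rise was 0.83 ± 0.10 (log2 difference ± SE, 4 against 4 arrays), with an adjusted p of 5.811e-04 in limma, and it was 0.80 without the liver arrays. On HFD the difference was 0.26 ± 0.11.

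Mlx, the obligate partner of ChREBP, had 8.25, 8.03, 8.04 and 8.33 at 8 weeks, against 7.01, 7.33, 7.40 and 7.65 at 4 weeks. All 8-week values lay above all 4-week values. Mlx rose by 0.81 ± 0.13 (adjusted p = 0.01263 in limma) and by 0.84 without the liver arrays. Mlxipl, the gene of ChREBP itself, had 9.93, 9.73, 9.90 and 9.44 at 8 weeks, against 9.29, 9.49, 9.76 and 9.96 at 4 weeks, which overlap, and its difference of 0.12 was not called (adjusted p = 0.8117 in limma).

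Cholesterol synthesis was the gene list with the highest median among the lists of metabolic pathways. Of 19 measured genes (of 25 listed), 2 rose and 0 fell, where 0.469% of all genes rose. All 19 differences were positive, against 49.7% of all genes, and the median was 0.69, against 0.00 for all genes. The 8-week and 4-week values did not overlap for 7 of the 19, all higher at 8 weeks, against 4.89% of all genes. The called members act one after the other in the mevalonate pathway. Pmvk, which adds the second phosphate to mevalonate, had 10.05, 10.14, 9.72 and 10.63 at 8 weeks, against 8.32, 9.09, 9.54 and 9.58 at 4 weeks. It rose by 1.00 ± 0.21 (adjusted p = 0.03398 in limma), although 8-week array 3 lay only just above the highest 4-week array. Mvd, the decarboxylase that makes isopentenyl diphosphate, had 7.39, 7.02, 7.17 and 7.82 at 8 weeks, against 6.08, 6.64, 6.23 and 6.86 at 4 weeks, and rose by 0.90 ± 0.21 (adjusted p = 0.0449). Its groups did not overlap, and the difference of both Pmvk and Mvd was 1.04 without the liver arrays.

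Mvk, the kinase before Pmvk, missed the threshold with a difference of 0.76 ± 0.18 (adjusted p = 0.05266 in limma) and passed it with the hepatocyte mean as covariate (0.92, adjusted p = 0.01697). Further down the pathway, Fdps, which makes farnesyl diphosphate, had 8.83, 9.05, 8.47 and 10.29 at 8 weeks, against 7.35, 7.90, 8.48 and 8.63 at 4 weeks. Lss, which closes the sterol rings, had 8.40, 8.35, 8.01 and 10.00 at 8 weeks, against 6.25, 7.53, 8.01 and 8.19 at 4 weeks. In both genes array 4 of the 8-week group was far above the other arrays, the groups overlapped, and the differences of 1.07 ± 0.37 and 1.20 ± 0.40 were not called. Insig1, which holds SREBP in the endoplasmic reticulum and is itself a known SREBP target, differed by 0.78 ± 0.27, not called. The gene of SREBP-2, Srebf2, had 8.33, 8.46, 8.50 and 8.39 at 8 weeks, against 8.12, 8.64, 8.31 and 8.51 at 4 weeks, a difference of 0.03. Hmgcs1, at the entry to the pathway, had 10.61, 10.70, 10.66 and 10.61 at 8 weeks, against 10.12, 10.84, 10.34 and 10.46 at 4 weeks, and differed by 0.20, not called.

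For the sterol genes, the median without the liver arrays was 0.85 and all 19 differences stayed positive, with 0 called. Without 4-week array 1 the median was 0.55 and 0 were called, where Pmvk had an adjusted p of 0.08407 and Mvd one of 0.1454 in limma. The mean of the 19 genes was 8.86, 8.83, 8.68 and 9.36 in the 8-week arrays, against 7.80, 8.34, 8.33 and 8.69 in the 4-week arrays. Array 4 was the highest of each group. The 8-week arrays left without the liver arrays were those at 8.68 and 9.36, and 8.68 lies just below the highest 4-week mean, 8.69. What the direction of the sterol genes rested on was not tested. Other genes known from sterol metabolism, picked after their values had been seen, also rose: Tmem97, a sterol-regulated membrane protein (0.82 ± 0.17), Mmab, the neighbour of Mvk that acts on vitamin B12 (0.81 ± 0.18), Spring1, needed for the cleavage of SREBP (0.54 ± 0.12), and Lrpap1, a chaperone of receptors of the LDL receptor family (0.59).

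Fatty acid synthesis gave no call among 19 measured genes, although all 19 differences were positive, against 49.7% of all genes, with a median of 0.40. The values did not overlap for 2 of the 19 members, where 4.89% of all genes were higher at 8 weeks without overlap. These were Thrsp and Mid1ip1, related proteins linked to lipogenesis, with differences of 0.40 and 0.96. Elovl6, which lengthens palmitate, had 11.80, 11.67, 11.31 and 12.70 at 8 weeks, against 9.09, 10.02, 11.17 and 11.59 at 4 weeks, and differed by 1.40 ± 0.56 (adjusted p = 0.2175 in limma). Acly, which cuts citrate to acetyl-CoA, had 12.82, 12.54, 12.34 and 13.45 at 8 weeks, against 10.46, 11.71, 12.69 and 12.70 at 4 weeks, a difference of 0.90 ± 0.44. In both, 4-week arrays 1 and 2 were low and 4-week arrays 3 and 4 lay within or near the 8-week range. Fasn, the fatty acid synthase, had 13.68, 13.74, 13.59 and 13.80 at 8 weeks, against 12.34, 13.34, 13.74 and 13.83 at 4 weeks, a difference of 0.39, with the same 2 arrays low. Acaca, which makes malonyl-CoA, had 12.03, 11.98, 11.87 and 12.38 at 8 weeks, against 10.53, 11.52, 12.32 and 12.37 at 4 weeks, a difference of 0.38. Without 4-week array 1 the difference was 0.07 for Fasn and -0.01 for Acaca, and the list median was 0.20. Without the liver arrays the list median was 0.38. Scd1, the stearoyl-CoA desaturase, differed by 0.02, with 13.80, 13.78, 13.73 and 13.77 at 8 weeks, against 13.66, 13.77, 13.75 and 13.83 at 4 weeks. The highest value of any cluster in any array was 14.13. Whether the signal limits differences this near to it, for Scd1 or Fasn, was not tested.

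**Figure D2:**
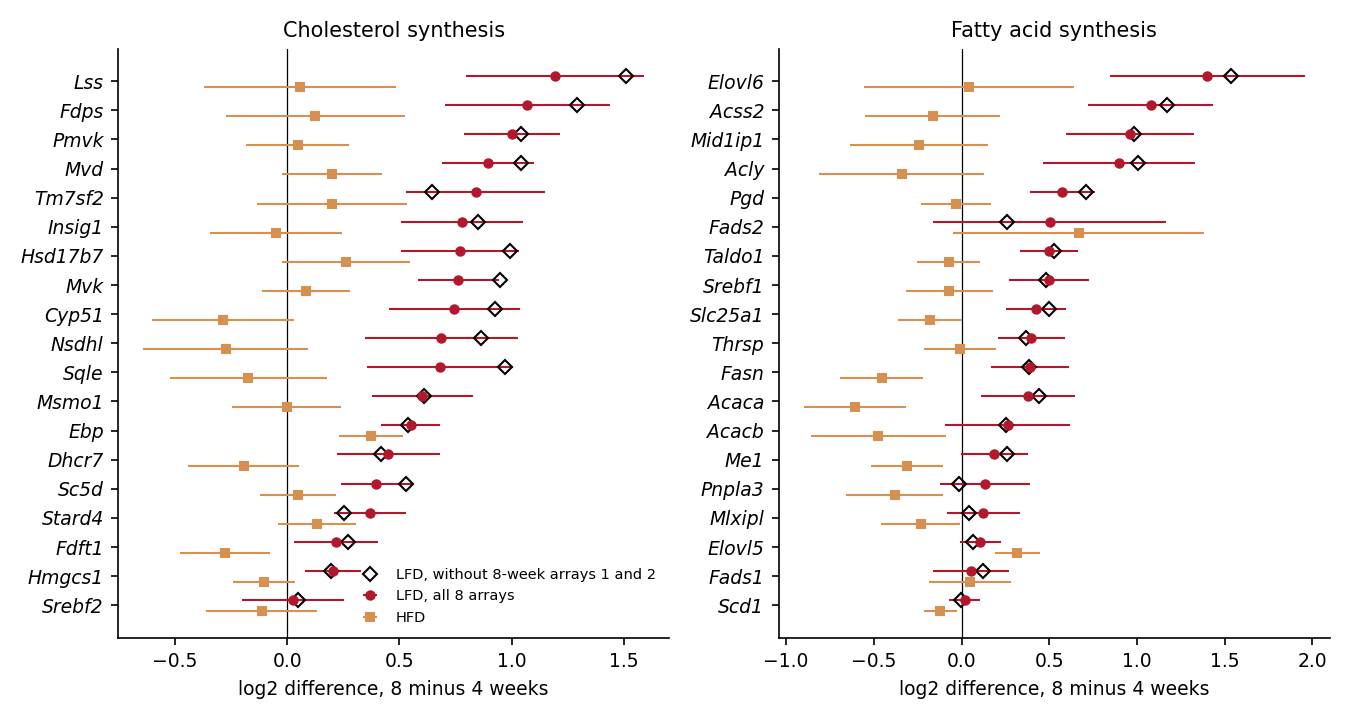
Log2 difference, 8 minus 4 weeks (x axis), of each measured gene of cholesterol synthesis (left) and fatty acid synthesis (right), as red circles with the SE for LFD over all 8 arrays, open diamonds for LFD without the liver arrays, and orange squares with the SE for HFD. All red circles lie above 0, from 0.03 for Srebf2 to 1.20 for Lss on the left and from 0.02 for Scd1 to 1.40 for Elovl6 on the right, and the HFD squares scatter around 0.

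Members of several mitochondrial gene families were called. The families here were taken by gene symbol after the values had been seen, so they are described without a test of their own. A lean to positive differences was not limited to mitochondrial families. Most genes of proteasome subunits, none of them called, and most genes of RNA polymerase subunits also had positive differences. Among the polymerase genes, Polr1d (0.55 ± 0.093, adjusted p = 0.01312 in limma) and Polr3g (0.843 ± 0.185, adjusted p = 0.0404 in limma) were called. Of 71 genes of mitochondrial ribosomal proteins (Mrpl and Mrps), 11 rose and 0 fell, where 0.469% of all genes rose. Of the 71 differences, 67 (94.4%) were positive, against 49.7% of all genes, and the median was 0.26. The values of 27 of the 71 did not overlap and were higher at 8 weeks, against 4.89% of all genes. The 11 were Mrpl57, Mrpl58, Mrpl16, Mrpl34, Mrpl4, Mrpl50, Mrpl54, Mrps16, Mrps28, Mrps34 and Mrps7, with rises from 0.44 to 0.83. Mrpl58, a peptidyl-tRNA hydrolase of the large subunit, had 8.84, 9.20, 8.86 and 8.99 at 8 weeks, against 8.31, 8.34, 8.43 and 8.62 at 4 weeks, and rose by 0.55 ± 0.09 (adjusted p = 0.01306 in limma). Its groups did not overlap. Mrps28, of the small subunit, had 7.52, 8.05, 7.74 and 7.66 at 8 weeks, against 6.84, 7.29, 6.94 and 7.14 at 4 weeks, and rose by 0.69 ± 0.13. Here too every 8-week array was above every 4-week array.

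Of 42 Nduf genes, which encode subunits and assembly factors of respiratory complex I, 6 rose and 0 fell, where 0.469% of all genes rose, with a median of 0.32. Of the 42 differences, 35 were positive (83.3%, against 49.7% of all genes). The 6 were Ndufs8, Ndufa11, Ndufa13, Ndufa7, Ndufa8 and Ndufb7. Ndufs8, an iron-sulfur subunit, had 9.67, 9.98, 9.60 and 9.67 at 8 weeks, against 8.86, 9.12, 8.99 and 9.14 at 4 weeks. It rose by 0.70 ± 0.12 (adjusted p = 0.01312 in limma), with no overlap. Ndufa13 had 9.72, 9.61, 9.51 and 9.66 at 8 weeks, against 9.04, 9.15, 8.90 and 9.26 at 4 weeks, and rose by 0.54 ± 0.09. Against the family, Ndufa4, since assigned to complex IV, had 11.39, 11.51, 11.29 and 11.23 at 8 weeks, against 12.34, 11.42, 11.56 and 11.69 at 4 weeks, a difference of -0.40 that was not called.

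The other respiratory complexes held single calls or none, where 0.469% of all genes rose. Cox6b1 of complex IV rose (0.47, 1 of 17 Cox genes), as did Atp5o of the ATP synthase (0.64, 1 of 18 Atp5 genes). Of 8 Uqcr genes of complex III, which include the pseudogene Uqcrh-ps1, 0 were called. Timm13, which escorts proteins to the inner membrane (0.56), the complex I assembly factor Tmem126a (0.57) and Smdt1, a part of the calcium uniporter (0.41), rose too. Chchd10, a protein of the intermembrane space, had 9.58, 9.52, 9.22 and 9.81 at 8 weeks, against 8.47, 8.38, 8.82 and 9.02 at 4 weeks, and rose by 0.86 ± 0.20 (adjusted p = 0.04546 in limma). Its groups did not overlap, and with the hepatocyte covariate its adjusted p was 0.06238.

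The medians of the mitochondrial families were close with and without the liver arrays: 0.27 without them for the mitochondrial ribosome and 0.28 for complex I. Without 4-week array 1 they were 0.20 and 0.22, and 2 and 3 genes were called. The written list of 20 oxidative phosphorylation genes, of which 5 are Nduf genes, had 0 calls and a median of 0.26, with 19 positive differences (95.0%, against 49.7% of all genes) and 8 genes that were higher without overlap, against 4.89% of all genes. Fatty acid oxidation (18 genes) had 0 calls and a median of 0.25, which was 0.11 without the liver arrays. Of 89 genes of cytosolic ribosomal proteins, 1 rose and 1 fell, where 0.469% of all genes rose and 0.167% fell. Of the 89 differences, 45 were positive (50.6%) and the median was 0.01. The 2 called genes were Rpl10a (0.67 ± 0.12) and Rps15 (-0.91 ± 0.20). Near-identical copies of ribosomal protein genes are common in the mouse genome, so both values are uncertain, and Rps15 had only 3.56, 3.10, 3.54 and 3.70 at 8 weeks, against 4.60, 4.09, 4.65 and 4.18 at 4 weeks.

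Promoters of 4 called genes are printed to show their starts beside the motif counts: 2 of the mitochondrial ribosome, Mlx as the called partner of ChREBP, and Mvd of the mevalonate pathway. Each runs 5′ to 3′ on the gene's strand and ends at the base before the annotated start, from RefSeq on build GRCm38.p6. Capitals mark matches to the motifs searched on both strands: CACGTG (the E-box), GCGCN followed by TGCGC (the NRF1 motif), CCGGAAG (the ETS motif), TCACNCCAC (a sterol regulatory element) and CCAAT (the CCAAT box). The promoters are those of Mrpl57 (chr14:57825989-57826238, plus strand), Mrpl58 (chr11:115403502-115403751, plus strand), Mlx (chr11:101087040-101087289, plus strand) and Mvd (chr8:122443423-122443672, minus strand).
Mrpl57: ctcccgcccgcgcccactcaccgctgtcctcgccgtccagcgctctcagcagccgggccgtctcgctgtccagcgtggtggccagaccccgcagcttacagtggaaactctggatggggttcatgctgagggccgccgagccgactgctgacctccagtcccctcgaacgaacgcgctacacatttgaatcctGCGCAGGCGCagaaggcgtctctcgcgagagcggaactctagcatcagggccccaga
Mrpl58: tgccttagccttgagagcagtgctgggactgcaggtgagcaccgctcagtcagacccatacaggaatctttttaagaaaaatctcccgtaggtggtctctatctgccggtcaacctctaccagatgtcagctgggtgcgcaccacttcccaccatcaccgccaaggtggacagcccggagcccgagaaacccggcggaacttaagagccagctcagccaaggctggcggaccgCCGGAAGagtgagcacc
Mlx: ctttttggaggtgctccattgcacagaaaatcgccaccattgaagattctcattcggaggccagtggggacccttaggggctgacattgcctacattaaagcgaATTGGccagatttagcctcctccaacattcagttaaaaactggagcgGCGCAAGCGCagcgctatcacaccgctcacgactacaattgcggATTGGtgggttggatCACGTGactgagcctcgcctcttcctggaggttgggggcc
Mvd: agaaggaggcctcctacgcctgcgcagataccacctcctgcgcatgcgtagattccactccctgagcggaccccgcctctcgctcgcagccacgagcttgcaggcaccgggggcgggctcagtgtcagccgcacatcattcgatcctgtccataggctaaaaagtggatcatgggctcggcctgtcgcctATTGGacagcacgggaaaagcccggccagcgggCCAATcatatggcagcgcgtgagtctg

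The Mrpl57 promoter held the NRF1 motif 57 to 48 bases before the start, and the Mrpl58 promoter held the ETS motif 17 to 11 bases before it. Mlx held an E-box 40 to 35 bases before the start, an NRF1 motif and 2 CCAAT boxes, and Mvd held 2 CCAAT boxes, the nearer one 27 to 23 bases before the start. The ETS motif occurred in 21 of the 88 risen genes with a promoter in the table (23.9%) and in 0 of 26 fallen genes, against 7.05% of all 27025 promoters and 9.06% of those of the genes tested. Among mitochondrial ribosomal protein genes it occurred in 15 of 62 (24.2%). The NRF1 motif occurred in 9.09% of the risen genes, against 3.86% of all promoters and 5.44% of those of the genes tested. The E-box occurred in 13.6% of the risen genes, against 6.05% of all promoters and 6.86% of those of the genes tested. The CCAAT box occurred in 14 of 15 promoters of the cholesterol synthesis list (93.3%), against 34.5% of all promoters and 35.6% of those of the genes tested, and the sterol regulatory element in 1 of these 15, against 1.04%. These are descriptions of letters within 250 bases, and a match is not a bound site. Of the risen genes 94 of 104 had a mean above the median of all gene values, against 16 of 37 fallen genes. No background matched for level was used, so whether the shares go with the rise or with the level was not tested.

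Of the remaining large rises, Wdr46, a factor of ribosome assembly in the nucleolus, had 8.81, 9.07, 9.15 and 9.19 at 8 weeks, against 7.27, 8.13, 8.34 and 8.54 at 4 weeks, and rose by 0.98 ± 0.19 (adjusted p = 0.0207 in limma). Its difference on HFD was 0.50 ± 0.21. Igfals encodes the acid-labile subunit that carries IGF in plasma and is known as a product of the liver. Its values were 7.82, 7.79, 7.65 and 8.20 at 8 weeks, against 6.39, 6.97, 6.73 and 7.45 at 4 weeks, and the liver arrays were not the high ones. The rise was 0.98 ± 0.23 (adjusted p = 0.0449), 1.04 without the liver arrays, with an adjusted p of 0.05063 under the hepatocyte covariate.

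Nol3, an inhibitor of cell death, had 8.18, 8.50, 8.36 and 8.72 at 8 weeks, against 6.88, 7.87, 7.63 and 7.83 at 4 weeks, and rose by 0.89 ± 0.19. Adcy10, the soluble adenylyl cyclase, had 5.18, 5.13, 4.85 and 5.78 at 8 weeks, against 3.71, 3.95, 4.69 and 4.79 at 4 weeks, and rose by 0.95 ± 0.21. Both were free of overlap, and both had their lowest value in 4-week array 1. The lower Adcy10 values at 4 weeks, 3.71 and 3.95, lie near the mean of olfactory receptor genes at that time, 3.35. For Adcy10 a level above background was not tested, so the size of its rise is uncertain. Snrnp35, a protein of the minor spliceosome, rose by 0.84 ± 0.17, and Rab32, a small GTPase of organelle traffic, by 0.84 ± 0.19. Jund, a component of the AP-1 transcription factor, had 9.12, 9.14, 9.49 and 9.04 at 8 weeks, against 8.01, 8.80, 8.70 and 8.53 at 4 weeks. It rose by 0.69 ± 0.16 (adjusted p = 0.04546 in limma). It was the 1 called gene among 22 immediate early genes, whose median was 0.10, where 0.636% of all genes were called. Hspb6, a small heat shock protein, rose by 0.67 ± 0.13, and was higher in the 8-week arrays without liver transcripts (8.72 and 8.97) than in the liver arrays (8.38 and 8.52), against 8.10, 8.00, 7.89 and 7.92 at 4 weeks. Ccnk, a cyclin of transcription, was not called over all 8 arrays (0.49 ± 0.12, adjusted p = 0.06126). Without the liver arrays the log2 differences were 1.10 for Wdr46, 0.99 for Nol3, 1.03 for Adcy10, 0.80 for Snrnp35, 0.94 for Rab32, 0.76 for Jund, 0.87 for Hspb6 and 0.70 for Ccnk.

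Col6a5, a chain of the microfibrillar collagen VI, had the largest fall among the called genes with an established name and no overlap between the groups. Col6a5 was called in only 1 of the 8 fits that each left out 1 LFD array. Its values were 7.90, 8.20, 8.20 and 8.14 at 8 weeks, against 10.02, 9.42, 9.93 and 8.67 at 4 weeks, so the 8-week arrays were tightly grouped and 4-week array 4 was the nearest to them. The log2 difference was -1.40 ± 0.32 (adjusted p = 0.0449 in limma), and -1.34 without the liver arrays, and the adjusted p under the hepatocyte covariate was 0.06144. On HFD Col6a5 differed by 0.19 ± 0.35, and the difference between the diets was -1.59 ± 0.47 with an adjusted p of 0.8144 in limma. At 12 weeks of LFD its mean was 7.92. Other collagens were not called: Col1a1 had 9.74, 9.75, 10.06 and 9.86 at 8 weeks, against 9.98, 10.11, 10.59 and 9.80 at 4 weeks (-0.27), and Col3a1 differed by -0.12. Other chains of collagen VI, Col6a1, Col6a2 and Col6a3, had positive differences of 0.36, 0.40 and 0.26, not called. Of 28 extracellular matrix genes, 0 were called and the median was 0.03, or 0.12 without the liver arrays.

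Grem1, a secreted inhibitor of Bmp4 and related factors that promote adipocyte commitment, had 4.09, 4.01, 4.42 and 4.38 at 8 weeks, against 5.84, 4.72, 5.48 and 4.69 at 4 weeks. It fell by 0.96 ± 0.19 (adjusted p = 0.02368 in limma), with 4-week arrays 1 and 3 the highest. Slc6a4, the serotonin transporter, had 5.09, 5.01, 5.17 and 4.63 at 8 weeks, against 5.80, 5.84, 6.01 and 5.73 at 4 weeks, and fell by 0.87 ± 0.19 without overlap (adjusted p = 0.0404, and 0.05376 under the hepatocyte covariate). Celf3, an RNA-binding protein best known from the nervous system, had 4.03, 4.57, 4.89 and 4.40 at 8 weeks, against 5.40, 4.98, 5.47 and 5.53 at 4 weeks, and fell by 0.87 ± 0.16. The groups did not overlap, though 8-week array 3 lay close to 4-week array 2. Without the liver arrays the log2 differences were -0.78 for Grem1, -0.94 for Slc6a4 and -0.70 for Celf3.

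Trim30d, of a family of interferon-regulated genes with similar copies side by side, had 5.09, 5.45, 5.66 and 5.90 at 8 weeks, against 6.23, 6.43, 6.39 and 6.37 at 4 weeks. It fell by 0.83 ± 0.15 (adjusted p = 0.01726 in limma), and by 0.58 without the liver arrays, which had the lowest values. Fam205a2 (-1.12 ± 0.25), Olfr961, an olfactory receptor (-1.04 ± 0.22), Speer4d (-0.97 ± 0.21) and Rps15 also fell. All belong to families with closely similar copies, so the probes may not separate the members. At 8 weeks Speer4d had 2.97, 2.96, 2.90 and 2.82 and Olfr961 had 3.61, 3.03, 3.24 and 3.57, while the mean over 1105 olfactory receptor genes, which are little expressed outside the nose, was 3.26 at 8 weeks and 3.35 at 4 weeks. For these genes and for Rps15, a level above background was not tested, and the size of the fall is uncertain. Scarna2, a small RNA that guides modification of spliceosomal RNA, had 9.98, 9.96, 10.16 and 9.72 at 8 weeks, against 11.14, 11.00, 10.55 and 10.45 at 4 weeks, and fell by 0.83 ± 0.14. The groups did not overlap. Small nucleolar RNAs as a family (78 genes) had 1 call, where 0.636% of all genes were called. Their median was -0.29, but 0.09 without 4-week array 1.

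**Figure D3:**
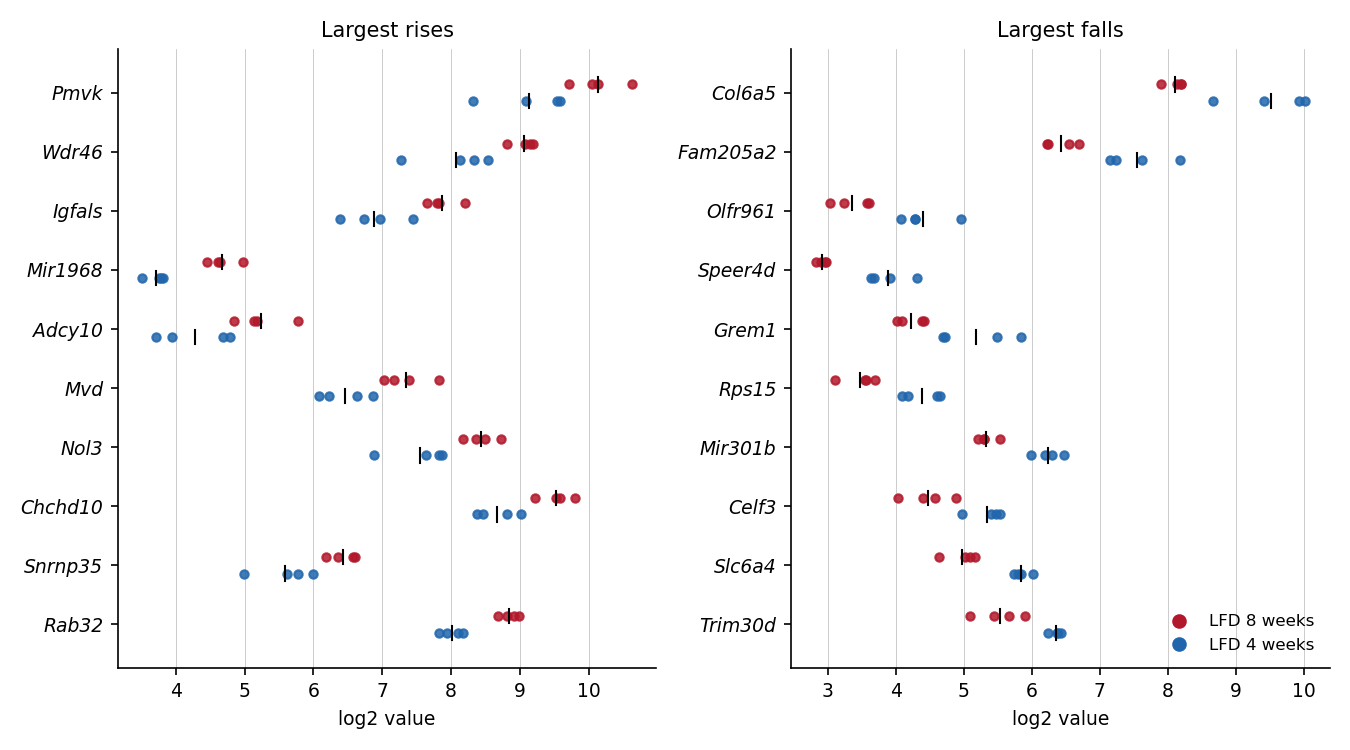
Log2 values (x axis) of the 10 largest rises (left) and 10 largest falls (right) among called genes with an established name and no overlap between the groups, 1 point per array, with LFD 8 weeks in red above LFD 4 weeks in blue for each gene and a black tick at each group's mean. The 4-week array 1 lies lowest for Wdr46 (7.27) and Nol3 (6.88).

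Among the called genes were 5 miRNA genes, of which 2 rose and 3 fell. The mature sequences are printed from RefSeq, with the seed (bases 2 to 8) in capitals, to show the seeds of the arms listed there, no pair of which is the same. Mir1927 is named only, and of Mir301b the 5p arm is printed. The sequences come from Mir1968 on chr8:13189031-13189098 (minus strand, within the coordinates of Grtp1), Mir3059 on chr10:101772692-101772772 (plus strand), Mir301b on chr16:17124400-17124496 (minus strand) and Mir5128 on chr2:37688201-37688284 (minus strand, within the coordinates of Strbp), all on GRCm38.p6.
mmu-miR-1968-5p: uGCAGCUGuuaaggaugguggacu
mmu-miR-1968-3p: aCCACCUCugcagcuguuaag
mmu-miR-3059-5p: uUUCCUCUcugccccauagggu
mmu-miR-3059-3p: cCUCUAGGgaagagaagguugg
mmu-miR-301b-5p: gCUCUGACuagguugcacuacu
mmu-miR-5128: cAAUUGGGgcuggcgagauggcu

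Mir1968 had 4.61, 4.97, 4.64 and 4.45 at 8 weeks, against 3.78, 3.81, 3.51 and 3.76 at 4 weeks, and rose by 0.95 ± 0.17 (adjusted p = 0.01312 in limma). The groups were clear of each other. Its mean was 3.73 at 12 weeks of LFD, and the difference of 12 minus 8 weeks was -0.94 (adjusted p = 0.0189, where 0.0676% of all genes were called). Grtp1, whose coordinates include it, differed by 0.12 between 8 and 4 weeks and was not called. Mir301b had 5.29, 5.30, 5.53 and 5.21 at 8 weeks, against 6.47, 6.29, 5.98 and 6.20 at 4 weeks, and fell by 0.90 ± 0.16 (adjusted p = 0.01312). Every 8-week array was below every 4-week array. Mir5128 had 3.07, 2.86, 2.84 and 2.96 at 8 weeks, against 3.34, 3.51, 3.83 and 3.75 at 4 weeks, and fell by 0.68 ± 0.12. Mir3059 rose by 0.59, with 3.25, 3.29, 3.31 and 3.56 at 8 weeks, against 2.82, 2.91, 2.53 and 2.79 at 4 weeks, and Mir1927 fell by 0.61. The values of Mir5128 at 8 weeks and of Mir3059 at 4 weeks lie below the olfactory receptor means of 3.26 and 3.35 at those times, so the sizes of these differences are uncertain. The Mir1968 values at 4 weeks lie only a little above 3.35, and for Mir1968 too the size is uncertain. Without the liver arrays the differences were 0.83 for Mir1968, 0.67 for Mir3059, -0.87 for Mir301b, -0.71 for Mir5128 and -0.61 for Mir1927. These clusters are annotated to the miRNA genes, and the arrays do not separate a mature miRNA from its precursor.

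Lists of other adipose functions held 0 called genes. The 16 clock genes had a median of 0.29 (0.38 without the liver arrays), with Dbp, an output gene of the clock, at 10.87, 10.53, 10.91 and 11.23 at 8 weeks, against 9.23, 9.57, 10.33 and 10.64 at 4 weeks. That difference of 0.94 ± 0.26 was not called (adjusted p = 0.08206 in limma), and 8-week array 2 lay below the highest 4-week array. Arntl, the core activator, had 5.98, 6.30, 6.08 and 5.66 at 8 weeks, against 6.70, 6.94, 6.22 and 6.00 at 4 weeks, a difference of -0.46 in the other direction from Dbp, and Nr1d1, its repressor, differed by 0.19. The 11 thermogenic genes had a median of 0.33 (0.21 without the liver arrays), where Ucp1, the uncoupling protein of brown fat, had 3.97, 3.73, 4.17 and 3.86 at 8 weeks, against 4.20, 3.93, 3.81 and 3.86 at 4 weeks. Elovl3 of that list had 7.55 and 7.19 in the liver arrays and 4.63 and 5.68 in the other 8-week arrays, against 5.29, 4.02, 4.36 and 4.04 at 4 weeks. Its difference of 1.84 became 0.73 without the liver arrays.

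Genes that define adipocytes gave small differences. The 18 mature adipocyte genes had a median of 0.06 (0.05 without the liver arrays) with 0 calls. Lep, the gene of leptin, differed by 0.17 and Pparg, the master regulator of adipocytes, by 0.35 ± 0.24. Slc2a4, the insulin-regulated glucose transporter, had 9.98, 10.02, 9.80 and 9.99 at 8 weeks, against 8.89, 9.48, 9.91 and 9.97 at 4 weeks, a difference of 0.39 that was not called. Its low values were in 4-week arrays 1 and 2, as for Fasn. Sfrp5 and Mest, genes linked to adipose expansion, differed by 0.63 ± 0.55 and 0.51 ± 0.25, not called, with overlapping groups.

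Immune and dividing cells gave 0 calls in their lists. The medians were 0.02 for 20 macrophage genes, 0.01 for 14 genes of lipid-associated macrophages, -0.03 for 23 cytokines and chemokines, -0.23 for 9 MHC class II genes and 0.05 for 19 cell cycle genes. Without the liver arrays these medians were -0.03, -0.07, -0.06, -0.14 and 0.10 in the same order. Adgre1, the macrophage marker F4/80, had 7.95, 8.02, 7.96 and 8.03 at 8 weeks, against 8.14, 8.31, 8.06 and 8.05 at 4 weeks. These groups were separate but only just, and the difference of -0.15 was not called (adjusted p = 0.7871 in limma). Ccl2, a monocyte chemokine, had 6.56, 6.42, 6.89 and 6.92 at 8 weeks, against 6.36, 6.83, 6.35 and 6.28 at 4 weeks, and differed by 0.24. Mki67, a marker of dividing cells, differed by 0.06, with overlap.

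**Figure D4:**
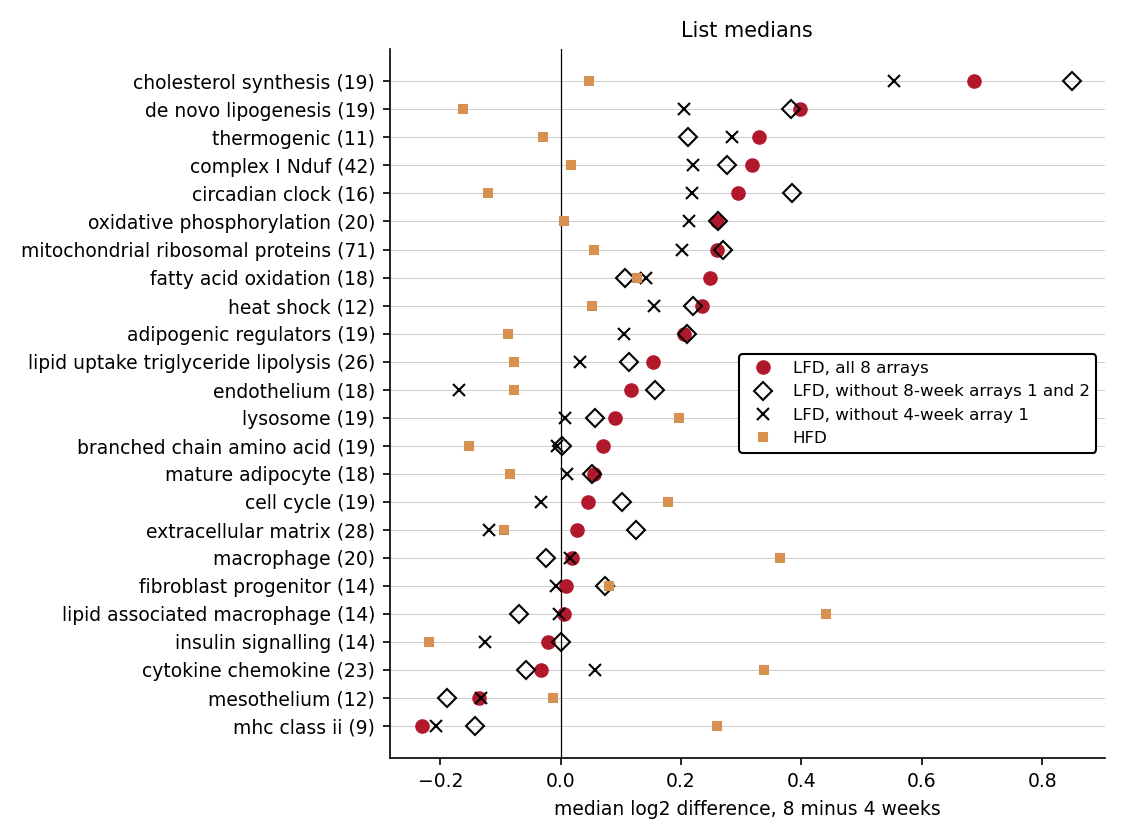
Median log2 difference, 8 minus 4 weeks (x axis), for gene lists with the number of measured genes in brackets, as red circles for LFD over all 8 arrays, open diamonds without the liver arrays, crosses without 4-week array 1 and orange squares for HFD. Cholesterol synthesis lies farthest to the right on LFD (0.69, and 0.85 without the liver arrays), and its HFD median is 0.05.

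The same interval on HFD was used to ask whether the changes were particular to LFD. Between 8 and 4 weeks of HFD (4 and 3 arrays), limma called 0 genes (0%), with 1964 at an unadjusted p under 0.05. Of the 141 genes called on LFD, 125 had the same sign on HFD (88.7%, against 59.5% of all genes), with a median of 0.19 in the called direction. The difference between the diets was itself tested: 0 genes were called (0%), the lowest adjusted p was 0.8144, and 1329 genes (5.99%) had an unadjusted p under 0.05, while an analysis of variance at an unadjusted p with a fold limit gave 436. No gene or list can therefore be called particular to LFD. The genes with the smallest p of that test were Fam110c, Sla2, Sprr2d, Trim30d and Olfr224. Fam110c had 6.67, 6.70, 6.50 and 6.78 at 8 weeks of LFD, against 6.11, 6.03, 6.16 and 5.96 at 4 weeks, and rose by 0.60 ± 0.11 (adjusted p = 0.01518 in limma). On HFD it differed by -0.15 ± 0.12, and the difference between diets was 0.74 ± 0.16. Sla2, an adaptor of T cells, differed by -0.40 on LFD and 0.32 on HFD, and Sprr2d, an epithelial envelope protein, by 0.45 and -0.58. These pairs are values of single genes whose difference did not pass the test after adjustment.

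For the pathways, the median difference between 8 and 4 weeks was 0.69 on LFD and 0.05 on HFD for cholesterol synthesis, 0.40 and -0.16 for fatty acid synthesis, 0.26 and 0.06 for the mitochondrial ribosome, and 0.32 and 0.02 for complex I. On HFD, 3 of the 4 arrays at 8 weeks had a hepatocyte mean above 8, and 1 of the 3 arrays at 4 weeks had an epididymis mean of 10.66. Their part in the HFD values was not tested.

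Over the course of LFD, the mean of the cholesterol synthesis genes was 8.29 ± 0.37 at 4 weeks, 8.94 ± 0.30 at 8 weeks and 8.53 ± 0.15 at 12 weeks (SD, n = 4 each). The mitochondrial ribosomal genes had 7.27 ± 0.13, 7.57 ± 0.06 and 7.46 ± 0.03 at the same times, and complex I had 8.27 ± 0.05, 8.52 ± 0.05 and 8.39 ± 0.04. In these families the mean at 8 weeks was the highest of the 3, and in both mitochondrial families the 8-week arrays did not overlap with the 4-week arrays. Fatty acid synthesis had 10.81 ± 0.49, 11.28 ± 0.17 and 11.10 ± 0.10, with overlap between 8 and 4 weeks. The labelled age of 34 weeks at 12 weeks of diet leaves the age of that last group unclear. In 3 of the 4 LFD arrays at 12 weeks the hepatocyte mean was above 8. On chow, the 2 baseline arrays differed widely from each other, at 7.41 and 8.50 for cholesterol synthesis, and the higher of them had an epididymis mean of 12.24.

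**Figure D5:**
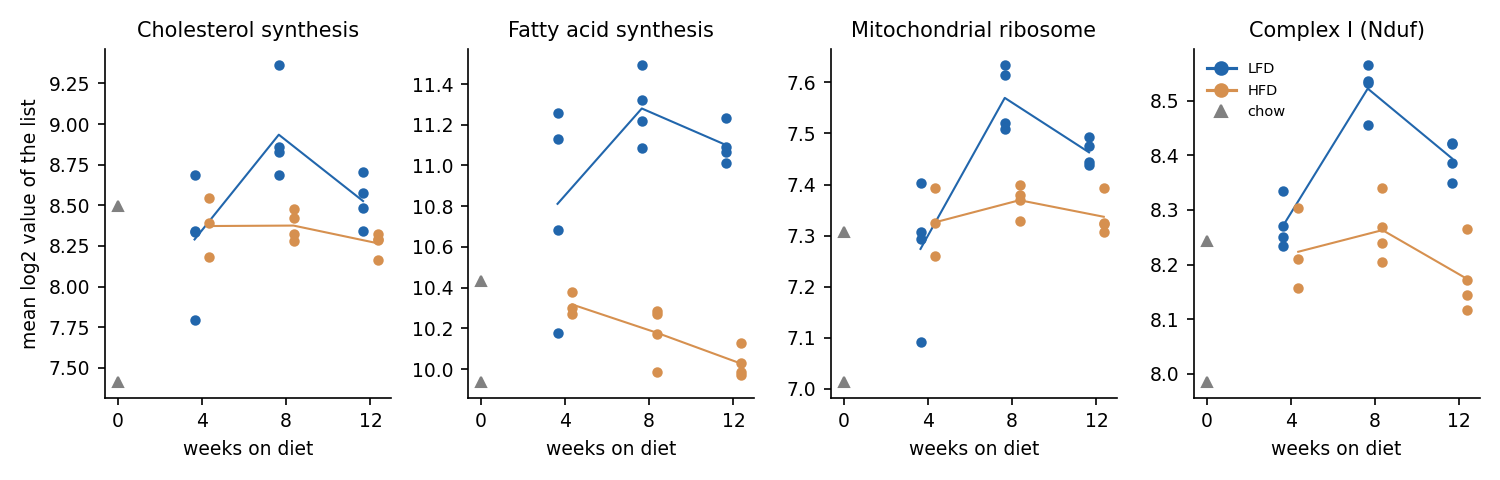
Mean log2 value of 4 gene lists (y axis) in each array against weeks on diet (x axis), with LFD in blue, HFD in orange, chow as grey triangles at 0 and lines through the group means. The LFD means are highest at 8 weeks in each panel, with 8.94 for cholesterol synthesis and 7.57 for the mitochondrial ribosome.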

How the data were processed

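The series' design text names the Transcriptome Analysis Console, version 4.0.2, as the authors' software. For the background correction and normalization, the method was not given in the sources used here. Values in the deposited table are log2 values, as read from their range of 1.73 to 14.13. Of 34472 transcript clusters, 23521 carried 1 gene symbol in the annotation given, 1814 several and 9137 had no entry there. For each symbol the cluster with the highest mean was kept, which gave 22180 genes, and no filter on signal was used.

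Group means of all 25 arrays were fitted with limma 3.58.1 in R 4.3.3 (18 residual degrees of freedom), and LFD at 8 weeks was compared with LFD at 4 weeks by the moderated test, with Benjamini-Hochberg adjustment over all genes. A difference is given ± its moderated SE. Arrays with a hepatocyte mean above 8 counted as holding liver transcripts, and 4-week array 1 was the LFD array with an epididymis mean above 5. The same contrast was fitted without the 2 liver arrays, with the hepatocyte mean as covariate, and as a difference between the diets. The fit was run on simulated data with independent noise, which held no outlying array and no array with added liver transcripts. That run therefore does not bear on how the calls depend on such arrays.

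The rule for named genes took the 10 largest rises and 10 largest falls among called genes whose arrays did not overlap and whose names are not provisional, up to 4 called members of each list, a fixed panel of 21 genes, 5 genes in each direction without the liver arrays, and the 5 with the smallest p between diets. The comparison, the lists (40, with 576 of 629 genes measured) and the rule were chosen with earlier results of these data known. Replicates are separate samples per the labels, 1 array each. RefSeq tables for GRCm38.p6 gave promoters (250 bases before the start, first entry per gene) and miRNAs.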

Additional observations from a re-analysis of the deposited data

Results flagged for a closer look

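In 134 groups of 4 arrays, the highest or lowest array was compared with its nearest neighbour as a share of the group's range (Dixon's ratio) and set against its 95% critical value. This gave 4 values over the critical value, which is no more than the about 1 in 20 groups that chance gives. The mean of the mature adipocyte genes in LFD 4-week array 1 was 11.53, with the nearest at 11.94 (ratio 0.958), and the mean of the epididymis genes in the same array was 5.83, with the nearest at 4.25 (ratio 0.856). Ccl2 in LFD 4-week array 2 had 6.83, with the nearest at 6.36 (ratio 0.855). Mir1968 in LFD 4-week array 3 had 3.51, with the nearest at 3.76 (ratio 0.833). The 2 liver arrays of the 8-week group were not found this way, since each was the other's neighbour.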

How the results depend on the processing

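All 141 called genes, which were chosen with these same arrays, kept their sign in each alternative that tested them, but the number of calls moved. Against 141, it was 0 with only the 8 arrays compared, 91 with arrays centred on their median, 295 among the genes above the median mean value, 465 with array weights, 89 with a fold limit of 1.5, 505 by an analysis of variance at an unadjusted p with that limit and 60 at an adjusted p, 33 with the liver split as a block, 0 without the liver arrays of the 8-week group or of all groups, 92 without all arrays with epididymis transcripts, 0 without both kinds of LFD array, and 22 to 224 when single arrays were left out, where 13 genes were called every time. Quantile normalization gave 106 calls, of which 59 rose and 47 fell, against 104 and 37. It shifted the median of all genes by -0.02. For members of the written lists (3 called), the counts were 0, 1, 11, 16, 3, 35, 1, 1, 0, 0, 1 and 0 in the order above, then 0 to 7 without single arrays, 6 with all clusters tested, 5 with trend and robust moderation, and 6 with hepatocyte and epididymis covariates. The 165 calls under the hepatocyte covariate became 4 without 8-week array 4, 7 without 4-week array 1 and at most 277 (without 4-week array 4). Without the liver arrays, limma called 0 genes (2111 at an unadjusted p under 0.05), which became 7 with array weights and 0 to 1 without single arrays. The difference between the diets gave 0 calls in limma in every alternative, with 905 to 2129 genes at an unadjusted p under 0.05.

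Replicate numbers did not pair the samples (correlations of same-numbered deviations 0.151, -0.007, 0.211 and 0.076). With a replicate block the count was 222 over all arrays and 0 over the 8 arrays (7 and 0 for list members).

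Only uncalled genes of the panel turned their sign, and the cause was not tested. In the order hepatocyte covariate, liver block, without the 8-week liver arrays, without all liver arrays, both covariates, and without both kinds of LFD array, Alb gave -0.403, -0.563, -0.88, -0.88, -0.256 and -0.205, and Ucp1 gave 0.034, 0.057, 0.065, 0.065, 0.04 and 0.148. Xist gave -0.146, -0.032, -0.033 and -0.01 with the liver block and the 3 removals of liver arrays, and Scd1 gave -0.003, -0.002 and -0.033 in those removals. Adgre1 gave 0.032 with the liver block. With array weights Acaca gave -0.01, Scd1 -0.006, Mki67 -0.09, Nr1d1 -0.1 and Ucp1 0.081, and with quantile normalization Mki67 gave -0.036 and Ucp1 0.065. Without all arrays with epididymis transcripts Acaca gave -0.005, Scd1 -0.013, Mki67 -0.071, Nr1d1 -0.037 and Ucp1 0.066, and without both kinds of LFD array Mki67 gave -0.018. Without single arrays the range was -0.086 to 0.044 for Adipoq, -0.005 to 0.608 for Acaca, -0.013 to 0.043 for Scd1, -0.071 to 0.192 for Mki67, -0.037 to 0.349 for Nr1d1 and -0.097 to 0.066 for Ucp1.

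Precision was limited by 2 to 4 arrays a group and by 4-week array 1 and the 2 liver arrays.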
